A study of Caenorhabditis elegans with 2 samples.

Results

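Promoters of Rab and Arf small GTPase genes, of the TBC genes that encode Rab regulators, and of numbered sec genes of the secretory pathway were examined for binding of CEH-48, a homeodomain protein of the cut family, in embryos of the nematode Caenorhabditis elegans. The members are the protein-coding genes named rab, arf, arl, tbc or sec with a number in the Ensembl annotation of WBcel235, leaving out rab-3. They number 59 of 19973 protein-coding genes, with 19 rab, 3 arf, 6 arl, 17 tbc and 14 sec genes. These name classes were chosen with binding in these same data known, and the regions at them were selected by summit position and signal, so their counts and signals are descriptions and no test was made on them.

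CEH-48 occupancy was measured by ChIP-seq, the sequencing of DNA precipitated with the protein, in 1 group of 2 biological replicates. Both came from whole embryos of mixed sex, labelled late embryonic and taken 3.5 hours after synchronization by egg bleaching. The strain, OP631, has the genotype unc-119(tm4063) III; wgIs631, and its transgene carries the CEH-48 gene fused at its C-terminal end to GFP and FLAG. The description in the labels names an antibody against GFP, whereas the antibody tag reads ceh-48. As whole embryos were used, the cells in which a region was occupied are not known, and no strain without the tag is analysed here.

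Rab and Arf proteins are molecular switches that, with GTP bound, recruit coats, tethers and motors to a membrane and so give each transport step its direction. TBC domain proteins speed the hydrolysis of GTP by Rabs and switch them off. The sec genes were first named in yeast secretion mutants, and in the worm they encode parts of the COPII coat that buds vesicles from the endoplasmic reticulum (ER), SNAREs that fuse membranes, a signal peptidase subunit and the exocyst, which tethers vesicles at the plasma membrane. All cells use these steps, and neurons rely on them to build and move synaptic and dense-core vesicles. CEH-48 is known as a factor of the nervous system.

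A gene was taken as bound when the summit of at least 1 IDR region lay from 1000 bp upstream to 200 bp downstream of its 5′ end, the promoter window. IDR regions are the set the authors kept for reproducible ranks across replicates. That set holds 1840 regions. They are those of highest signal in the list of 30000 regions that the authors made from the pool of both replicates. Of the 943 IDR summits in promoter windows, 903 had a summit within 100 bp in both replicate lists. Signal is the authors' deposited value per region. Its scale is not stated, so regions are ranked by it only within a list. Where replicate signals are set side by side, they are the deposited values. No correction for depth, which is unknown, was made here.

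The sequences at 4 of the 12 summits are given to show windows with and without a motif. ATCGAT and ATTGAT are core sequences known to be bound by homeodomain proteins of the cut and onecut kind. The 100 bp around each are written 5′ to 3′ in the direction of the member gene, from the ce11 (WBcel235) reference genome. Capitals mark ATCGAT, or ATTGAT on either strand. The windows at arf-6, rab-6.2 and rab-14 were chosen for their signal, and that at rab-39, the weakest of the 12 regions, was added because it holds ATCGAT. The rab-14 window holds neither sequence.
rab-6.2: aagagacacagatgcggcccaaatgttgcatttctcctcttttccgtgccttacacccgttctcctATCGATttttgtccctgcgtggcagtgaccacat
rab-39: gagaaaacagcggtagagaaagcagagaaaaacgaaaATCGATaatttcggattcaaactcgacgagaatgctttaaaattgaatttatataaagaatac
arf-6: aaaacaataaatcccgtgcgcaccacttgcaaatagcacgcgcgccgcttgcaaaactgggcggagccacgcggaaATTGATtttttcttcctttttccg
rab-14: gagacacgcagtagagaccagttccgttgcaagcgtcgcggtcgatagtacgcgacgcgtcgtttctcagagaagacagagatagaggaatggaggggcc
The rab-6.2 window is chrX:17222275-17222374 on the plus strand and the rab-39 window chrII:9323206-9323305 on the minus strand. The arf-6 window is chrIV:16946907-16947006 on the plus strand and the rab-14 window chrX:15606975-15607074 on the minus strand. ATCGAT was in the 100 bp window of 361 of the 943 IDR summits in promoter windows (38.3%), and ATTGAT on either strand in 239 of them (25.3%).

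CEH-48 had an IDR summit in the promoter window of 12 of the 59 genes (20.3%, 95% exact binomial interval 11 to 32.8%), against 6.29% of all protein-coding genes. The bound genes were rab-1, rab-5, rab-6.2, rab-7, rab-14, rab-18, rab-39, arf-6, tbc-1, sec-3, sec-15 and sec-22. Each had 1 IDR summit, and no summit was shared between members. Rab genes made up 7 of the 12. None of the 6 arl genes was among them, which in a family of this size is near the share of all genes. The interval covers the counting of genes only, and no test was made, since the classes were chosen on this readout.

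**Figure D1:**
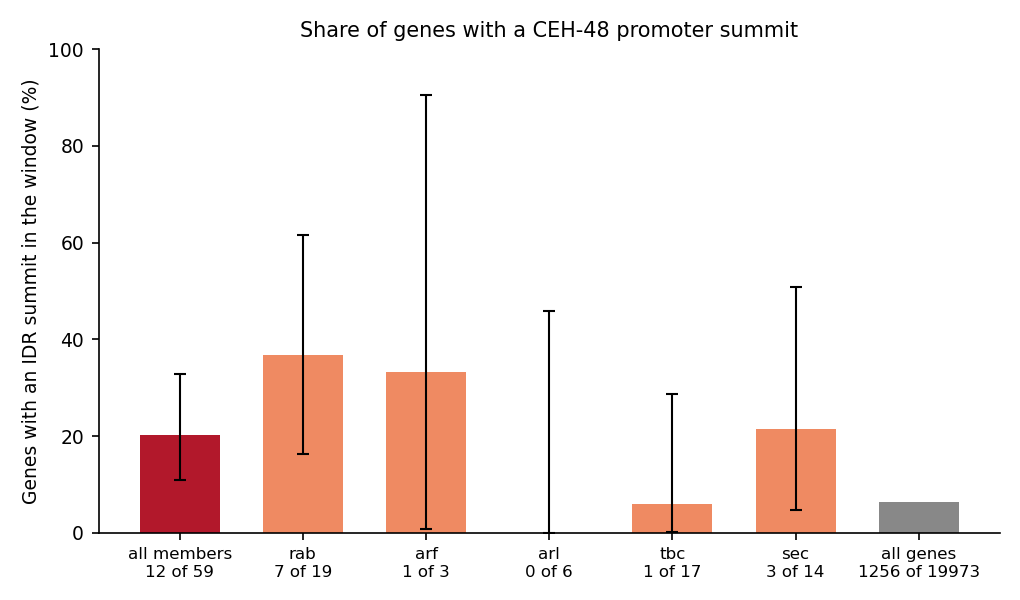
Share of genes with an IDR summit in the promoter window (%), for the 59 members, for each of the 5 name families and for all protein-coding genes. Bars start at 0 and the error bars of the members and families are 95% exact binomial intervals; 20.3% of members and 6.29% of all genes had a summit, and the intervals of the families overlap.

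By family, the share was 36.8% of rab genes (7 of 19, interval 16.3 to 61.6%), 33.3% of arf genes (1 of 3, 0.84 to 90.6%), 0 of 6 arl genes (interval up to 45.9%), 5.88% of tbc genes (1 of 17, 0.149 to 28.7%) and 21.4% of sec genes (3 of 14, 4.66 to 50.8%). The share of tbc genes was near that of all genes in this window, as was the count of 0 among 6 arl genes. When each summit went to the closest 5′ end, however far, 7 of the 17 tbc genes had an IDR summit, against 8.03% of all genes. The intervals of the families overlap, and differences between families were not tested.

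Among the Rab genes of the early secretory pathway and the Golgi, rab-6.2 and rab-1 were bound and rab-6.1, rab-30 and rab-33 were not. rab-6.2 encodes a Golgi Rab. Its region, on chromosome X from 17222214 to 17222440, had a signal of 246 in the pool, 90.2 in replicate 1 and 151 in replicate 2. The summit lay 150 bp upstream of the 5′ end in intergenic sequence and in no other gene's window, and the ATCGAT printed above lay 19 bp from it. The window of rab-6.1, the other RAB-6 gene, held only a region of signal 26.6 in the pooled list, at rank 19045. rab-1 encodes the Rab of transport between the ER and the Golgi. Its region on chromosome V, from 1264352 to 1264721, was weaker, with signals of 91.9 in the pool, 24.3 in replicate 1 and 67 in replicate 2. It lay 548 bp upstream of rab-1 and 236 bp upstream of the divergent gene C39F7.5. No pooled region was listed in the windows of rab-30 and rab-33.

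Of the Rab genes of endosomes and recycling, rab-5, rab-7 and rab-14 were bound among 9. RAB-5 acts on early endosomes, and its gene had a region on chromosome I from 9307702 to 9307852, with signals of 149 in the pool, 28.9 in replicate 1 and 122 in replicate 2. The summit lay 618 bp upstream, and ATCGAT lay 23 bp from it. RAB-7 acts on late endosomes and lysosomes. The region at rab-7, on chromosome II from 11967531 to 11967900, had signals of 110.4 in the pool, 46.6 in replicate 1 and 67.2 in replicate 2. Its summit was 785 bp from rab-7 and 172 bp upstream of W03C9.5, a gene on the same strand, so another 5′ end was nearer. No ATCGAT lay within 1000 bp of that summit. RAB-14 is a Rab of endosomes and the trans-Golgi. At rab-14, on chromosome X from 15606840 to 15607209, the signals were 110.5 in the pool, 18.1 in replicate 1 and 100.2 in replicate 2. Of the members' regions it differed most between replicates, and the strongest replicate 1 region in the rab-14 window was another one, 68 bp upstream (signal 29.5, rank 1644). A second pooled region in the rab-14 window, 144 bp downstream of the 5′ end, had a signal of 55.7, below the IDR threshold. The other 6 genes were rab-11.1 and rab-35, with pooled regions of signal 56.05 and 56.15 below the IDR threshold, rab-10 with 26.5, and rab-8, rab-11.2 and rab-21 with none. RAB-8, RAB-10, RAB-11 and RAB-35 are known for recycling and for polarized secretion.

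Of the other Rab genes, rab-18 and rab-39 marked the ends of the range of signal among the 7 bound Rab genes. RAB-18 is a Rab of the ER and lipid droplets. Its region, on chromosome III from 1080562 to 1080837, had signals of 336 in the pool, 116 in replicate 1 and 218 in replicate 2. It was the one member summit downstream of a member's 5′ end, by 95 bp, in the 5′ UTR of rab-18, and it lay also in the windows of the divergent genes kbp-4 and par-2. The rab-18 window held a further region of signal 42.8 in the pooled list, 708 bp upstream. rab-39 had the weakest of the 12 regions, on chromosome II from 9323071 to 9323440, with signals of 86.7 in the pool, 32.7 in replicate 1 and 62.7 in replicate 2. Its summit was 336 bp upstream, with ATCGAT 10 bp away. rab-19, rab-28 and rab-37 had no IDR summit in the window.

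Among Arf and Arl genes, arf-6 alone was bound, and it had the highest signal of all members. ARF-6 acts at the plasma membrane and in endocytic recycling. Its region, on chromosome IV from 16946841 to 16947082, had signals of 366 in the pool, 110.2 in replicate 1 and 254 in replicate 2, and ranked 136th of the 1840 IDR regions. The summit lay between divergent genes, 163 bp upstream of arf-6 and 157 bp upstream of Y116A8C.9, so the 2 starts were about equally near. arf-5 lay just outside the IDR set, with signals of 83.8 in the pool, 20.5 in replicate 1 and 63.3 in replicate 2. The window of arf-1, the Arf that recruits the COPI coat at the Golgi, held a pooled region of signal 33.6. Of the arl genes, arl-8, which encodes a GTPase of lysosomes and of axonal transport of synaptic vesicle precursors, had 38.4, arl-1 had 28.8 and arl-13 had 25.7, while no pooled region was listed at arl-3, arl-5 and arl-6. ARL-3, ARL-6 and ARL-13 are known for cilia.

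tbc-1 was the only bound tbc gene. Its region, on chromosome X from 14970198 to 14970567, had signals of 99.8 in the pool, 19.8 in replicate 1 and 70.3 in replicate 2. The summit lay 368 bp upstream of tbc-1 and 112 bp upstream of the divergent flwr-1, which encodes the Flower protein of synaptic vesicle endocytosis. A second pooled region in the tbc-1 window, 156 bp upstream, had a signal of 31.8. Among the other 16 tbc genes, 6 had a region below the IDR threshold, from 20.9 at tbc-7 to 63.6 at tbc-13, and 10 had no pooled region.

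In the sec genes, the bound members were exocyst and ER SNARE genes. Of the 6 exocyst genes with a sec name, sec-15 and sec-3 were bound. The sec-15 region, on chromosome X from 8836001 to 8836256, had signals of 315 in the pool, 78.7 in replicate 1 and 233 in replicate 2. Its summit lay in the 5′ UTR of the divergent gene C28G1.2, 392 bp upstream of sec-15, and 6 bp from a transfer RNA gene. It was the only member summit within 200 bp of a tRNA gene (8.33% of member summits), against 3.01% of other IDR summits in promoter windows. The part of the tRNA gene in the signal at sec-15 was not tested. The sec-3 region, on chromosome X from 3099814 to 3100183, was weaker, with signals of 93.7 in the pool, 19.5 in replicate 1 and 74.5 in replicate 2. It lay 147 bp upstream of sec-3 and in no other window. Of the others, sec-5, sec-8 and sec-10 had pooled regions of signal 48.4, 43.9 and 20.4, and sec-6 had none in the window. The exocyst genes with other names, exoc-7 and exoc-8, had no IDR summit in the window. sec-22 encodes a SNARE of the ER and the Golgi. Its region, on chromosome X from 1035140 to 1035322, had signals of 230 in the pool, 54 in replicate 1 and 174 in replicate 2. The summit was in the 5′ UTR of the divergent gene stau-1, a Staufen gene, and 341 bp upstream of sec-22. No pooled region was listed at sec-20, another SNARE gene, or at sec-11, which encodes the catalytic subunit of signal peptidase.

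All 5 COPII genes lacked an IDR summit in the window (0 of 5, exact binomial interval up to 52.2%, against 6.29% of all genes), a count near the share of all genes. These are sec-12, the exchange factor that starts coat assembly, sec-23, sec-24.1 and sec-24.2 of the inner coat, and sec-31 of the outer coat. The pooled signal was 67.1 at sec-23, 50.7 at sec-12, 34.9 at sec-24.2 and 23.5 at sec-24.1, and no pooled region was listed at sec-31. Outside the window, an IDR summit lay 1667 bp upstream of sec-24.2, in the 5′ UTR of ccr-4. Its signals were 116 in the pool, 24.9 in replicate 1 and 95.7 in replicate 2. Introns of sec-23 held IDR summits with signals of 145 and 130 in the pool.

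**Figure D2:**
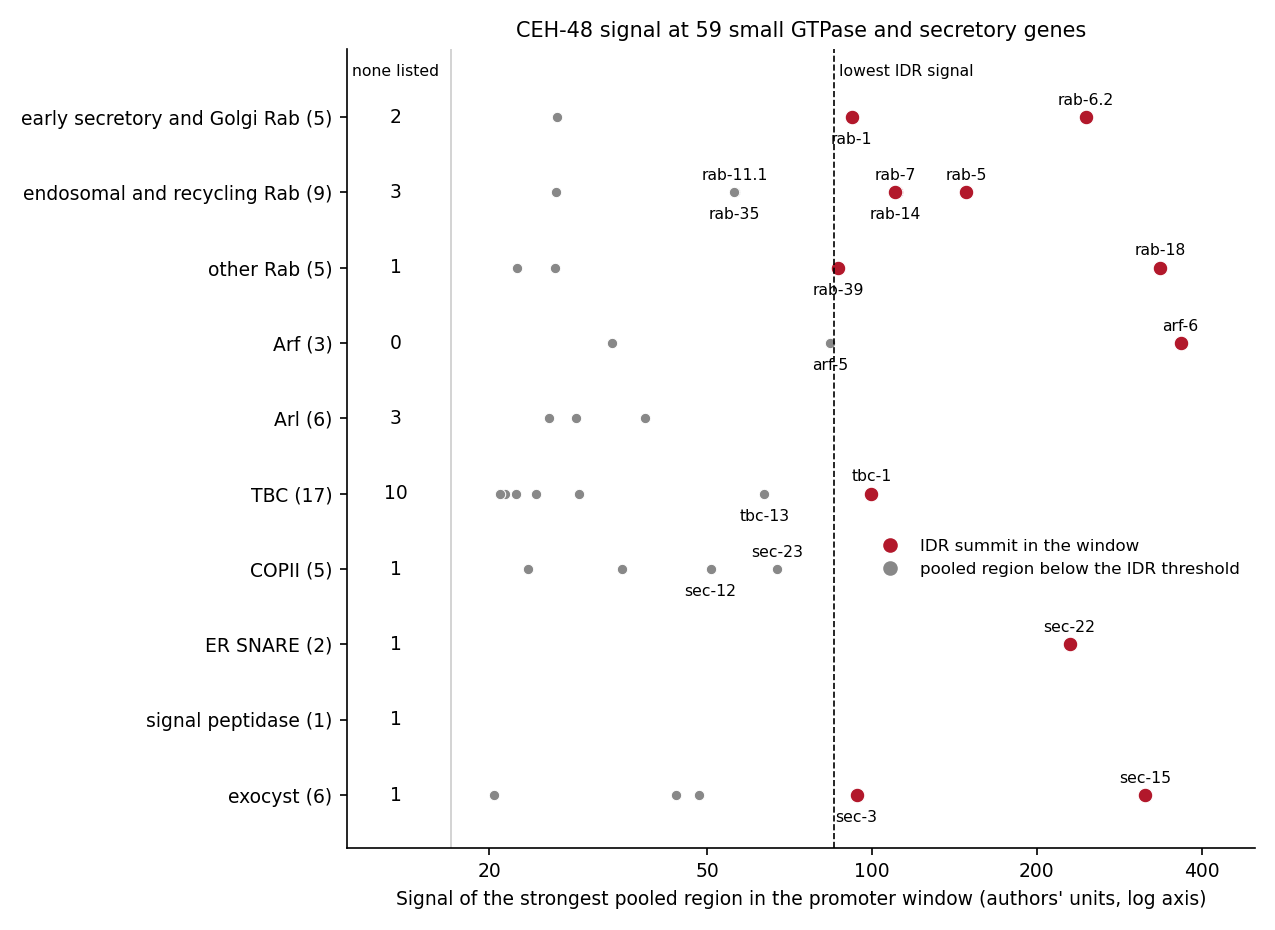
Signal of the strongest pooled region in the promoter window of each of the 59 genes (authors' units, log axis), by role, with the number of genes in parentheses and the number with no listed region at the left. Red points are IDR summits and grey points pooled regions below the IDR threshold. The 12 red points run from 86.7 at rab-39 to 366 at arf-6. The Arl, COPII and signal peptidase rows have none, which in rows of this size is near the share of all genes.

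The pooled list mixes peaks with background by design, so a region in it is no binding site by itself. Of the 59 genes, 36 had any pooled region in the window (61%), against 35.7% of all protein-coding genes. That leaves 24 genes with regions below the IDR threshold only and 23 with none in the pooled list. The lowest signal in the pooled list was 20.2. Just inside the IDR threshold of 85.2 were rab-39 (86.7), rab-1 (91.9) and sec-3 (93.7), and just outside it were arf-5 (83.8), sec-23 (67.1) and tbc-13 (63.6).

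The 12 regions spanned both sides of the median signal of promoter regions. Their median was 130, with a range of 86.7 to 366, against 141 and a range of 85.2 to 1044 for the 931 other IDR summits in promoter windows. Of the 12, 6 were above that median. In the narrower window of 500 bp upstream and 100 bp downstream, which held summits at 9 members, their median was 230. The regions at arf-6, rab-18, sec-15, rab-6.2, sec-22 and rab-5 were narrower, at 151 to 276 bp, and each had a −log10 q-value of 3.35, the highest in the IDR set, which 1117 of its 1840 regions share. The other 6 were 370 bp wide, the median width of promoter regions, with q-values from 2.51 to 2.72 on that scale.

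Both replicates held a region within 100 bp of all 12 summits. The same was so for 891 of the 931 other IDR summits in promoter windows. Among as many top regions of its own list as the IDR set has, replicate 1 placed 9 of the 59 genes and replicate 2 placed 12, against 5.71% and 6.33% of all protein-coding genes. Replicate 1 lacked rab-1, sec-3 and tbc-1, whose regions there ranked 2465th, 4345th and 4158th, and replicate 2 lacked rab-39, at rank 1850, and held arf-5, at rank 1825. The genes in both were arf-6, rab-5, rab-6.2, rab-7, rab-14, rab-18, sec-15 and sec-22. The IDR summit of rab-14 itself ranked 5442nd in replicate 1, and the gene counts there through the region 68 bp upstream. Signals in replicate 2 were 1.44 times (rab-7) to 5.55 times (rab-14) those in replicate 1, with a median of 2.86, against a median of 2.78 for other promoter summits. The IDR set was drawn from the pool of both replicates, so these ranks are not independent of the choice of regions.

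**Figure D3:**
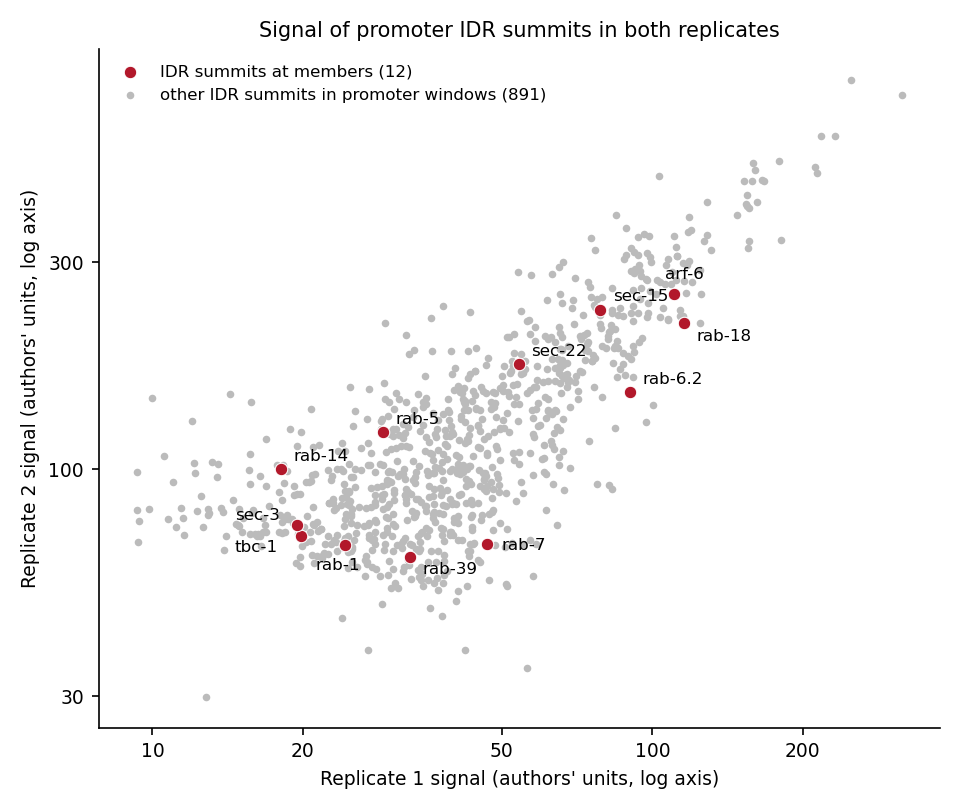
Signal in replicate 1 (horizontal) and in replicate 2 (vertical) of IDR summits in promoter windows, both in the authors' units on log axes. Red points are the 12 summits at members and grey points the 891 others with a region within 100 bp in both lists; arf-6, rab-18, sec-15 and rab-6.2 are high in both, and rab-14, sec-3 and tbc-1 are low in replicate 1.

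Most member summits lay also in the promoter window of a gene on the opposite strand. Of the 12 bound genes, 10 (83.3%) had their summit also in the window of another gene, and in each case that included a gene on the opposite strand, against 51.5% and 49.6% of the other 1244 bound genes. Only rab-6.2 and sec-3 had the summit to themselves. In 6 cases, rab-18, rab-6.2, rab-5, rab-14, sec-3 and rab-39, the member had the nearest 5′ end (50%, against 72.9% of other bound genes). In the others, the nearer start belonged to Y116A8C.9, C28G1.2, stau-1, W03C9.5, flwr-1 and C39F7.5. With such a summit the binding cannot be told apart between the neighbours. Differences from other bound genes were not tested.

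**Figure D4:**
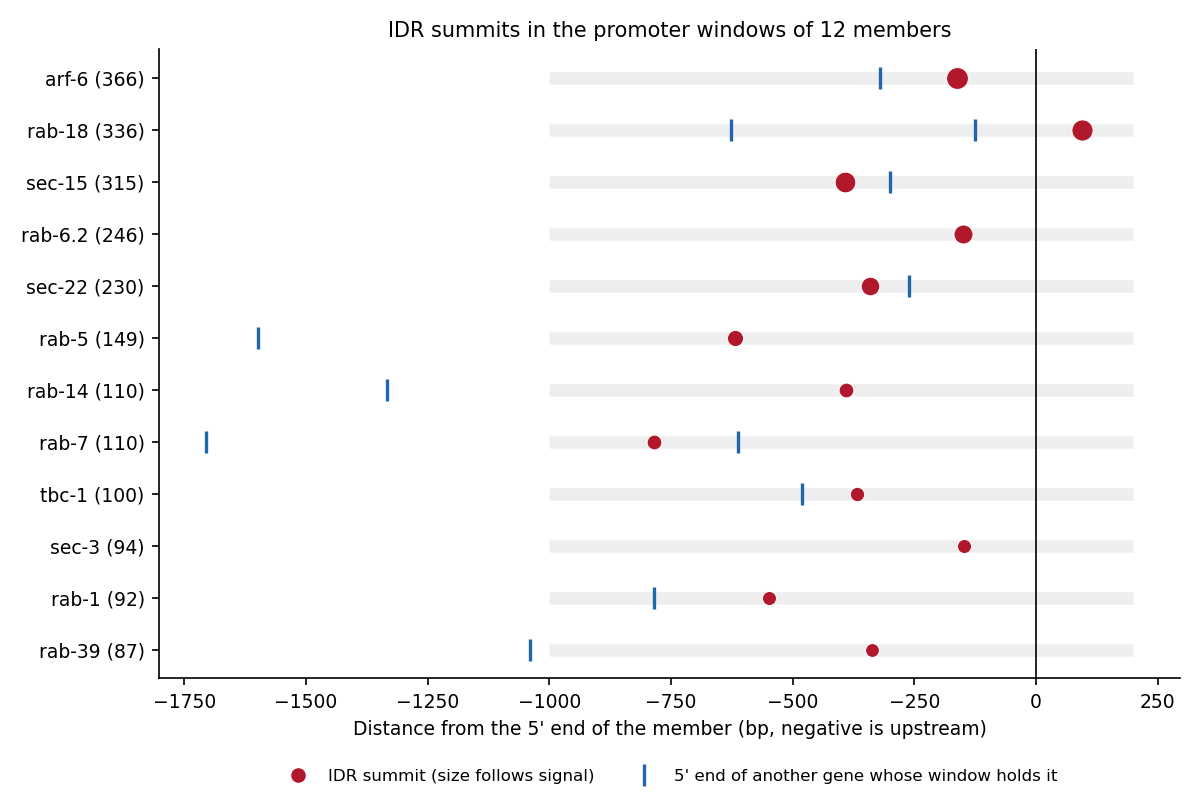
Position of the IDR summit (red point, larger for higher signal) in the promoter window (grey band) of each bound gene, in bp from its 5′ end, with the pooled signal after the gene name. Blue ticks are the 5′ ends of other genes whose windows hold the same summit; the summits run from 785 bp upstream at rab-7 to 95 bp downstream at rab-18.

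ATCGAT was within the 100 bp window of 3 of the 12 member summits (25%, 95% exact binomial interval 5.49 to 57.2%), those of rab-5, rab-6.2 and rab-39, against 38.5% of the other 931 promoter summits. With 12 summits the interval is wide, and the difference was not tested. In the windows centred 500 bp to each side of the member summits, 2 of 24 held it (8.33%, interval 1.03 to 27%). That interval overlaps the one at the summits, and this difference was not tested either. Counting ATTGAT on either strand as well, 7 of the 12 windows had a match (58.3%), against 58.9% of the others; the 4 that joined were arf-6, rab-18, sec-22 and tbc-1. The strongest 3 regions, at arf-6, rab-18 and sec-15, had no ATCGAT within 50 bp, and the nearest copies lay 306, 785 and 76 bp from their summits. The GC content of the windows had a median of 46.5%, from 32% at rab-39 to 59% at rab-7, against 47% for the others.

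Bound members were divided evenly between the X chromosome and the autosomes, although fewer members are X-linked. On X, 6 of 14 members had a summit (42.9%, interval 17.7 to 71.1%), against 6.19% of X-linked protein-coding genes. They were sec-3, sec-15, sec-22, rab-6.2, rab-14 and tbc-1, which includes all 3 bound sec genes. On the autosomes, 6 of 45 members were bound (13.3%, 5.05 to 26.8%), against 6.3% of autosomal genes. The intervals overlap, and this split was made after the values were seen.

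Several unbound members had an IDR summit a little outside the window. The nearest were at rab-19 (416 bp downstream of the 5′ end), tbc-10 (1040 bp upstream), sec-6 (1116 bp upstream) and rab-10 (1158 bp upstream). The summit at rab-19 lay within both rab-19 and Y62E10A.20, outside their coding exons and UTRs. The signal at rab-19 was 209 in the pool, 60.4 in replicate 1 and 143 in replicate 2, and that at tbc-10 was 251 in the pool, 53.3 in replicate 1 and 188 in replicate 2. The signal near rab-10 was 206 in the pool, 38.3 in replicate 1 and 166 in replicate 2. All 3 were above the median of promoter regions. The summit near sec-6 was weaker, at 92, 22.1 and 67.3 in the same lists. Within their genes but outside the window, summits also lay in introns of sec-23 (145 and 130), tbc-8 (156), tbc-7 (139) and tbc-17 (101), and in the 3′ UTR of tbc-10 (94.8). Over the 47 unbound members, the nearest IDR summit lay a median of 7480 bp from the 5′ end, and for 20 it lay more than 10000 bp away. Such distances and in-gene summits were not counted for other unbound genes. Whether they are usual for unbound genes is therefore not known.

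Other genes of the secretory pathway with other names were bound at a share between these members and all genes. Of 81 listed, 74 were found in the annotation, and 11 had an IDR summit in the window (14.9%, exact binomial interval 7.66 to 25%), against 6.29% of all protein-coding genes. The strongest was nsf-1, which encodes the ATPase that takes SNARE complexes apart, with signals of 446 in the pool, 98.3 in replicate 1 and 345 in replicate 2. It was followed by rbg-1 (259 in the pooled list), the signal peptidase gene spcs-2 (142), the translocon gene trap-3 (134), the syntaxin gene syx-5 (127), git-1 (117), which encodes an Arf GTPase-activating protein, the TRAPP tether gene trpp-11 (113), cogc-2 (101) of the COG tether, golg-4 (93.4), rme-6 (92.2), which encodes an exchange factor for RAB-5, and rbg-3 (91.8). Of these bound genes, only golg-4 had its summit in no other gene's window. The nsf-1 summit lay also in the window of adr-1. That at trpp-11, 937 bp upstream, lay also in those of rps-29 and snt-2. With shared summits the binding cannot be told apart between the neighbours. None of the 10 genes of the COPII, COPI and ER exit group was bound (interval up to 30.8%), among them sar-1, the GTPase that starts the COPII coat. In a group of this size a count of 0 is near the share of all genes, and sec-16A.2, a gene of ER exit sites outside both lists, had an IDR summit with a signal of 97.4. The unc-108 gene, which encodes the worm RAB-2, glo-1 and aex-6, all Rab genes with other names, were also unbound.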

How the data were processed

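CEH-48 ChIP-seq was measured in 2 biological replicates of 1 group, so no groups were compared. The authors called regions, background included, on the alignments of each replicate and on the pool, with the same further input, and took the IDR set from these lists, as the deposited read-me files state. The signal and the −log10 q-value of a region are the authors' deposited values. The sources used here do not name the aligner, the peak caller or the IDR threshold. Depth is unknown.

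Summits of the ce11 lists were joined to 5′ ends of protein-coding genes on the 6 nuclear chromosomes of the Ensembl annotation (WBcel235). The ce10 lists were not used here. Replicate values came from the nearest summit within 100 bp, and top regions of a replicate were its 1840 of highest signal. Intervals are 95% exact (Clopper-Pearson) and cover counting only. The members and lists were chosen with earlier results of these data known, and no test was made. Named genes are all bound members, the 8 unbound members with the highest pooled signal, the 4 with the nearest IDR summit, 3 on each side of the threshold and the bound genes of the pathway list (up to 15). Other members, and the further summits inside genes, were named after their values were seen. Sequences were due for the 6 strongest summits outside chromosome I. Those overlapping annotated UTRs (3) were left out, and rab-39 was added after its values were seen. The join was tested on simulated data, in 5 sets of 200 planted summits. Alternatives were other windows, thresholds, joining rules and name rules, each replicate alone and another motif; 1 alternative, without the summits next to tRNA genes, was added after seeing the data. Python 3.11.15 was used with numpy 2.4.6, pandas 2.3.3, scipy 1.17.1 and matplotlib 3.10.9.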

Additional observations from a re-analysis of the deposited data

How the results depend on the processing

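The count of 12 bound members lay between 9 and 18 under 9 of 10 alternatives. The lowest, 9, came with replicate 1 alone and with the narrow window, which ran from 500 bp upstream to 100 bp downstream. In that window 4.77% of all genes were bound. The highest, 18, came with the long window, from 2000 bp upstream to 500 bp downstream, beside 8.53% of all genes. With the 920 IDR regions of highest signal the count of members was 6 (3 rab, 0 tbc), beside 3.21% of all genes. The pathway count was then 3 of 74, near that share of all genes. From single replicates the count was 9 with replicate 1 and 12 with replicate 2, beside 5.71% and 6.33% of all genes. The count of rab genes was 4 in the narrow window, beside 4.77% of all genes. By nearest 5′ end at any distance, 0 arf, 7 tbc and 1 sec genes were bound, beside 8.03% of all genes. The tbc and sec counts were 3 and 5 in the long window, beside 8.53% of all genes. With every transcript start tbc was 2, beside 6.8% of all genes. From single replicates, arf gave 1 to 2, tbc 0 to 1, and the median signal 54 to 111, on other scales. The median signal was 230 in the narrow window. Members with any pooled region were 23 in the narrow window and also 23 with the 15000 strongest pooled regions, beside 24.4% and 23.9% of all genes. The share of summits with ATCGAT was 58.3% with ATTGAT counted too. The cause of these shifts was not tested. Without summits at tRNA genes 11 members were bound, the one lost being sec-15, beside 6.12% of all genes. Unknown depth limits what absence from the lists means. No paired analysis was possible because the series has 1 group.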

Other observations

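Genes of the same series of names that carry a letter after the number were not members. Of these, sec-61.B and sec-61.G, which encode subunits of the channel through which proteins enter the ER, and sec-16A.2, a gene of ER exit sites, had an IDR summit in the window. The sec-61.G signals were 141 in the pool of both replicates, 31.8 in replicate 1 and 100.1 in replicate 2, with the summit 236 bp upstream. The sec-61.B summit, 503 bp upstream, is the one at trap-3, with 134 in the pool, 20.9 in replicate 1 and 113 in replicate 2. At sec-16A.2 the signals were 97.4 in the pool, 24.6 in replicate 1 and 70.04 in replicate 2, with the summit 240 bp upstream and in no other gene's window. sec-16A.1 and sec-61.A had no IDR summit in the window. Including these 5 names, 15 of 64 genes were bound, against 6.29% of all protein-coding genes. rab-3, which encodes the Rab of synaptic vesicles, had no IDR summit in its window.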
